A study of Mus musculus with 74 samples.

Results

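The genes described here code for the protein parts of the cytosolic ribosome, and they were followed in sorted brain cells of mice that ate cuprizone, a copper chelator that kills oligodendrocytes and strips axons of myelin. A gene was included when it was annotated as protein coding and its mouse symbol was Rps or Rpl followed by a number (with at most 1 further letter a, x, y or l), Rplp0, Rplp1, Rplp2 or Rpsa. This gave 80 genes of the 49912 in the count table, 31 of the small subunit and 49 of the large subunit. A filter on low counts left 78 of the 80 for testing in microglia and 75 in the other cells. The mice were Trem2 -/-, Trem2 +/- or Trem2 +/+; Trem2 codes for a lipid-sensing receptor of microglia. They received 0.2% cuprizone or control diet for 12 weeks, the chronic demyelination arm, or for 5 weeks, the acute arm. Each of the 37 brains was perfused with PBS, dissociated enzymatically and sorted into viable Cd11b-positive cells, here microglia, and all remaining viable cells, called the nonmicroglia fraction, so that 74 libraries made 12 groups in each fraction. A group held 3 animals, except 4 in each Trem2 +/- group at 12 weeks and 2 in the Trem2 +/+ control group at 12 weeks, and 1 animal of each group was male.

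A ribosome is built from ribosomal RNA and, with few exceptions such as the stalk proteins, a single copy of each of its proteins. The small subunit reads the mRNA and the large subunit joins the amino acids. Cells therefore make ribosomal proteins in step with one another, mostly by controlling translation: the mRNAs begin with a C and an unbroken run of pyrimidines, the 5′ terminal oligopyrimidine (TOP) motif, through which the growth kinase mTORC1 and the RNA-binding protein LARP1 switch them between translation and storage. RNA levels, which are what was measured here, follow transcription and mRNA decay and do not report that switch.

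The start sites of 6 ribosomal protein genes whose RNA was higher on cuprizone in the comparisons that follow, and which carry this motif, are shown because the motif is what ties these genes to the translation control just described. They were picked for the motif: of the 27 genes that were higher at 1 or both durations 21 had an entry, and 6 of these 21 carried it. They come from the RefSeq promoter table on GRCm38.p6, 10 bases before the start and 20 from it, with the unbroken pyrimidine run from the start in capitals.
Rpl35a, chr16:33056472-33056501, plus strand: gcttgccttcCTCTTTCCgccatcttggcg
Rpl38, chr11:114668570-114668599, plus strand: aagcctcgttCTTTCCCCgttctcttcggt
Rplp2, chr7:141447641-141447670, plus strand: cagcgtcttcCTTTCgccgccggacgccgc
Rps15a, chr7:118116128-118116157, minus strand: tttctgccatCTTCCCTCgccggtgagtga
Rps18, chr17:33955646-33955675, minus strand: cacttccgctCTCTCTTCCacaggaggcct
Rps21, chr2:180257369-180257398, plus strand: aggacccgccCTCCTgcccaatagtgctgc
For contrast, the annotated start of Rps26, which had the smallest p after 5 weeks of cuprizone, has no such run at that position. The pyrimidines cctctttc lie a few bases after it.
Rps26, chr10:128626487-128626516, minus strand: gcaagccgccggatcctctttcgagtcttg
An entry was present for 60 of the 80 genes. A C at the start followed by 4 pyrimidines was found in 13 of these 60 (21.7%), against 3.01% of all 27025 genes with an entry. Annotated starts can be off by a few bases, so the absence of the run at one entry says only that these letters are not at that position. In the wider window, 250 bases before the start to 50 after it, the letters CCGGAAG, which ETS-family factors such as GABPA recognise, were found on either strand in 25 of the 60 genes (41.7%), against 9.93% of all genes. The palindrome CTCGCGAG was found in 7 (11.7%), against 1.04% of all genes; these were Rpl10a, Rpl12, Rpl26, Rpl27a, Rps19, Rps28 and Rps6. The letters TATAAA were found on either strand in 6 (10%), against 15.7% of all genes. None of these motifs contains another, and a gene could hold more than 1 of them.

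Libraries held 1043961 to 3945694 counts in microglia and 1255465 to 3441041 in the nonmicroglia fraction. In microglia the 8 microglia markers summed to between 15701 and 40282 CPM (counts scaled to the size of the library), against 315 to 780 CPM in the nonmicroglia fraction, and lymphocyte markers summed to at most 24.2 CPM. Trem2 itself had 110 to 243 CPM in Trem2 -/- microglia on cuprizone at 12 weeks, 723 to 1050 CPM in Trem2 +/- and 821 to 1035 CPM in Trem2 +/+. It was lower but not at 0 in Trem2 -/-, and the deleted part of the gene is not given in the sources used here. On the first principal component 4 microglia libraries stood apart from the others: a Trem2 -/- animal on cuprizone for 12 weeks (animal 981), a Trem2 -/- control at 5 weeks (945), a Trem2 +/- control at 12 weeks (7674) and a Trem2 +/+ control at 12 weeks (9145). In the nonmicroglia fraction 2 stood apart, a Trem2 +/- animal on cuprizone for 12 weeks (9469) and a Trem2 +/+ control at 5 weeks (1930). The labels name animals but no litters or sorting days, so p-values measure the spread between these animals only.

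Levels are given in CPM after TMM scaling within a fraction. The libraries count 1 tag near the 3′ end of each molecule, so a level is not divided by transcript length. Levels of single ribosomal protein genes were spread widely. In microglia the highest means over 37 libraries were 1981 ± 835 CPM for Rps21, a small-subunit protein, and 1462 ± 582 CPM for Rplp1, part of the stalk that recruits elongation factors (SD, n = 37). The lowest tested means were 1.73 CPM for Rpl28, 0.896 CPM for Rps6 and 0.469 CPM for Rpl24. Rps6, the small-subunit protein whose phosphorylation is the usual readout of mTORC1 signalling, was at 0 in 29 of 37 microglia libraries, and Rpl24 in 34. The median gene had 49.0 CPM; 33 of the 80 had a mean of 100 CPM or more, 13 had a mean under 10 CPM, and 52 were detected in every library. The 10 most counted genes held 55.5% of all ribosomal protein counts.

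The order of levels was much alike in the nonmicroglia fraction, with a Spearman correlation over the 80 genes of 0.97, where the points share the annotation and the 3′ end of each transcript. There Rps21 (873 ± 175 CPM), Rpl38 (708 ± 221 CPM), a large-subunit protein, and Rps14 (605 ± 183 CPM), a protein of the small-subunit platform, were highest (SD, n = 37). The lowest tested means were 2.42 CPM for Rpl10a, 2.22 CPM for Rps6 and 1.504 CPM for Rpl28. The tissue-restricted paralogs were low or absent: Rpl3l, made in heart and skeletal muscle, averaged 0.237 CPM in microglia and 0.257 CPM in the nonmicroglia fraction, Rpl39l, known from testis, averaged 4.12 and 0.169 CPM, and Rpl10l, also known from testis, had no count in any of the 74 libraries. Rps27l, a paralog of Rps27, averaged 127 CPM in microglia, while Rps27 averaged 4.70 CPM.

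Ribosomal protein genes have many processed pseudogenes, and tags that match several places may be dropped or split by a counter; the sources used here do not give its settings. The last 150 bases of each main transcript were therefore compared with all other annotated transcripts of GENCODE M21. No near-identical copy (at least 95% identity over at least 100 bases) was found for 44 genes, 18 had 1 to 4 copies and 18 had 5 or more; Rps2 had 46, Rpl7a 22, Rps12 21 and Rps6 14. The median level in microglia was 55.2 CPM for genes with no copy, 36.96 CPM with 1 to 4 and 48.8 CPM with 5 or more, and the number of copies and the level had a Spearman correlation of -0.04 over the 80 genes. Rps27 is the clearest case of an uncertain gene: the 1 near copy of its 3′ end had 1737 microglia counts, against 331 for Rps27 itself. The copies of Rps6 held 321 microglia counts, against 67 for Rps6. Among the genes described in what follows, Rpl23, Rpl35a, Rpl39, Rps25, Rplp0, Rplp2 and Rpl37a had no near copy, and Rps26 had 1, with 87 counts against 41768. Others did have copies: Rplp1 and Rps14 had 1 to 4 each and Rpl38 had 5 or more.

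**Figure D1:**
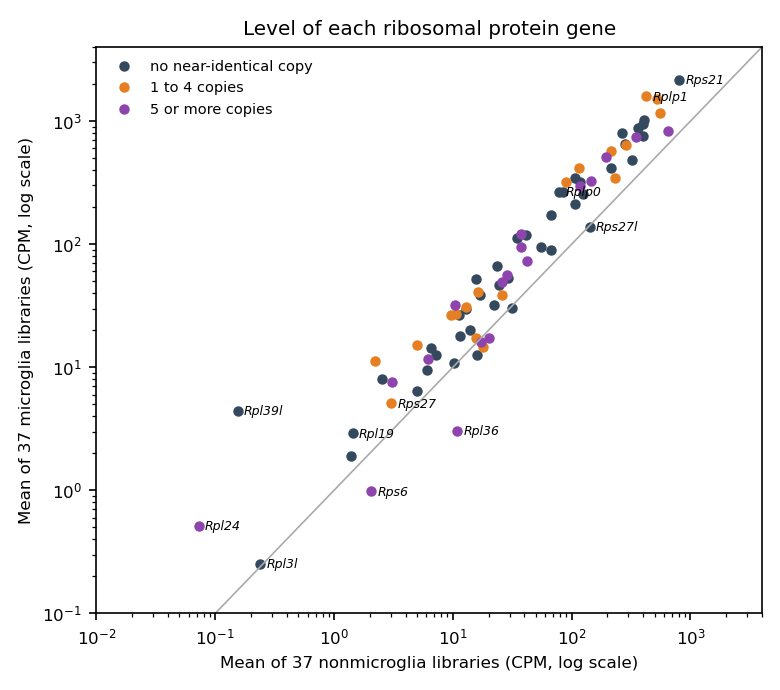
Mean level of each ribosomal protein gene over 37 microglia libraries (vertical, CPM scaled over both fractions, log scale) and over 37 nonmicroglia libraries (horizontal, same scale), 1 point per gene, coloured by the number of near-identical 3′ copies; the line marks equal levels. Most points lie above the line, the order of genes is much alike on both axes, and genes with many copies lie along the whole range.

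The share of all counts that fell on the 80 genes was higher on cuprizone in microglia, at both durations. At 12 weeks it was 1.65% to 2.90% with a median of 2.20% in the 10 microglia libraries on cuprizone, against 1.12% to 1.70% with a median of 1.35% in the 9 on control diet. At 5 weeks it was 1.73% to 2.91% with a median of 2.43% in 9 libraries on cuprizone, against 1.18% to 1.79% with a median of 1.58% in 9 on control diet. At each duration the lowest cuprizone library lay inside the range of the controls. By genotype the means at 12 weeks were 1.90% ± 0.306 on cuprizone and 1.52% ± 0.123 on control diet in Trem2 -/- (SD, n = 3 each), 2.65% ± 0.202 and 1.25% ± 0.113 in Trem2 +/- (SD, n = 4 each), and 2.16% ± 0.0158 (SD, n = 3) and 1.48% ± 0.311 (SD, n = 2) in Trem2 +/+. At 5 weeks they were 2.19% ± 0.636 and 1.48% ± 0.294 in Trem2 -/-, 2.48% ± 0.182 and 1.64% ± 0.0561 in Trem2 +/-, and 2.57% ± 0.314 and 1.53% ± 0.226 in Trem2 +/+ (SD, n = 3 each). In all 6 pairs the cuprizone mean was higher. In the nonmicroglia fraction the share was 0.982% to 1.34% on cuprizone and 0.748% to 1.13% on control diet at 12 weeks, and 0.795% to 1.21% and 0.784% to 0.957% at 5 weeks. The 231 near-copy genes in the table, mostly pseudogenes, held 0.0275% to 0.0738% of microglia counts on cuprizone (median 0.0486%), against 0.0218% to 0.0427% on control diet (median 0.0296%), both durations together. In these bulk samples more ribosomal protein RNA per cell and more cells of a type that holds much of it cannot be told apart. No test was run on the share itself.

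**Figure D2:**
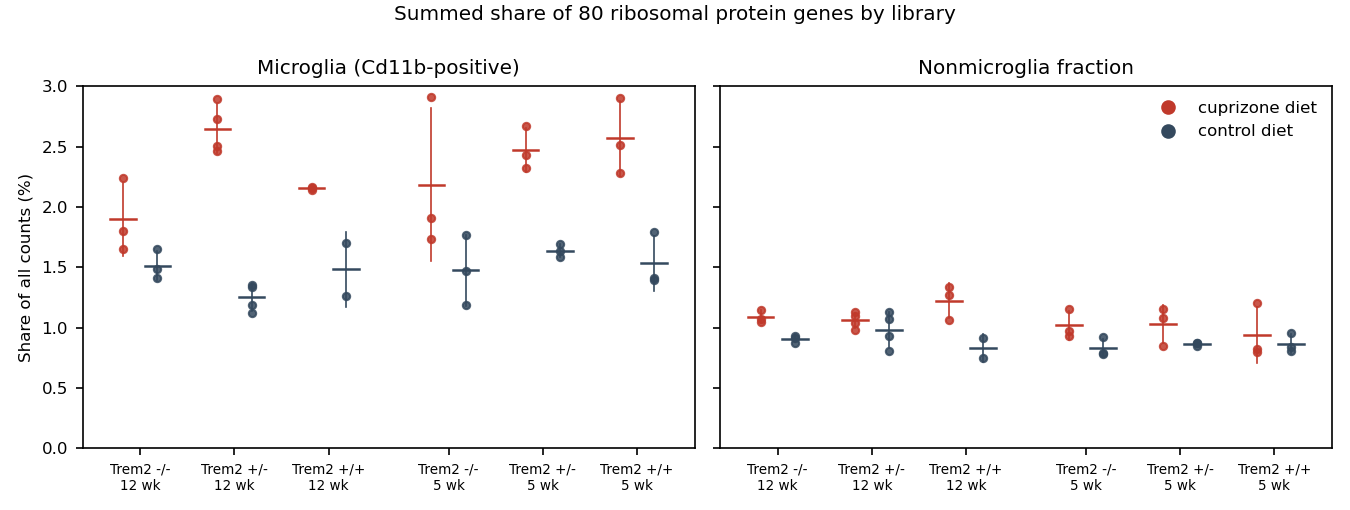
Percent of all counts of a library that fell on the 80 ribosomal protein genes, by genotype and weeks of diet, cuprizone left of control; points are libraries, horizontal bars group means and vertical lines 1 SD. In microglia the 10 cuprizone libraries at 12 weeks sit between 1.65% and 2.90% and the 9 control libraries between 1.12% and 1.70%.

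Does the diet change ribosomal protein RNA in microglia? With the 3 genotypes averaged, 25 genes rose and 1 fell after 12 weeks of cuprizone, of 78 tested (edgeR quasi-likelihood test, adjusted p under 0.05 over all 14087 genes). Of all genes, 2.04% were called higher and 0.909% lower. The median log2 difference, cuprizone minus control, was 0.74 over the 78 genes and 0.01 over all genes, and 68 of the 78 were positive. At an unadjusted p under 0.05, 44 of the 78 passed (56.4%), against 14.7% of all genes. Both subunits took part: 12 small-subunit and 13 large-subunit genes rose, with medians over all tested genes of 0.82 and 0.68. A gene could pass the filter on low counts through a few high libraries; among the 46 with a mean log2 CPM of 5 or more the difference was positive in 45.

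After 5 weeks 15 of the 78 rose and none fell, against 1.33% of all genes called higher and 0.27% lower. The median difference was 0.66 over the 78 genes and 0.00 over all genes, 71 of the 78 were positive, and 39 (50%) passed an unadjusted p under 0.05, against 11.7% of all genes. Of the small subunit 7 rose and of the large subunit 8, with medians of 0.77 and 0.65. The animals of both durations are different, and 13 genes were called at both, which is 52% of those called at 12 weeks and 86.7% of those called at 5 weeks; 27 were called at 1 or both. The 12-weeks-minus-5-weeks difference itself was not called for any of the 78 genes on cuprizone, where the median was -0.14 (adjusted p at least 0.184, edgeR; 7 genes at an unadjusted p under 0.05, 8.97%, against 10.5% of all genes, with 0.227% called higher and 0.114% lower).

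**Figure D3:**
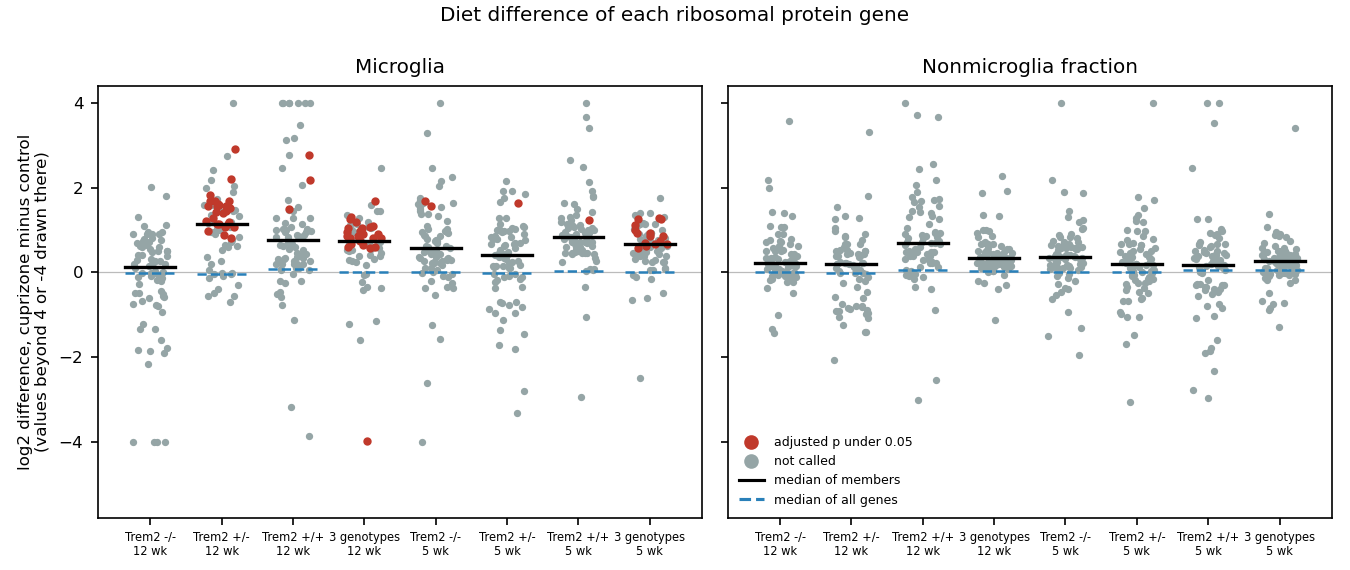
Log2 difference of each ribosomal protein gene, cuprizone minus control, in microglia (left) and the nonmicroglia fraction (right), within each genotype and averaged over the 3 genotypes; red points have an edgeR adjusted p under 0.05, values beyond 4 or -4 are drawn there, black bars are medians of the ribosomal protein genes and dashed bars medians of all genes tested. In microglia all 8 black bars lie above the dashed bars, and called points appear mainly in the averaged comparisons and in Trem2 +/- at 12 weeks.

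Among small-subunit genes, Rps26 rose at both durations. Its protein sits at the mRNA exit channel. At 12 weeks Rps26 had 273, 366 and 565 CPM in Trem2 -/- microglia on cuprizone, against 229, 329 and 362 CPM on control diet. In Trem2 +/- it had 1231, 1430, 1575 and 1842 CPM on cuprizone, against 195, 201, 327 and 636 CPM on control diet, and in Trem2 +/+ 381, 467 and 590 CPM, against 242 and 274 CPM. The groups did not overlap in Trem2 +/- and Trem2 +/+ and overlapped in Trem2 -/-. At 5 weeks the values were 854, 966 and 1030 CPM on cuprizone and 231, 276 and 400 CPM on control diet in Trem2 -/-, with no overlap. They were 423, 655 and 1125 CPM, against 339, 350 and 359 CPM, in Trem2 +/-, and 526, 847 and 1025 CPM, against 322, 382 and 457 CPM, in Trem2 +/+, so that every genotype separated by diet at 5 weeks. The averaged log2 difference was 1.19 ± 0.186 (SE) at 12 weeks with an adjusted p of 1.31e-05, and 1.27 ± 0.182 at 5 weeks with an adjusted p of 3.46e-06 (edgeR). Both calls held in every leave-one-out fit, 19 at 12 weeks and 18 at 5 weeks.

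Of the other small-subunit genes, 2 are named after their values were seen. Rps14 rose by 0.98 ± 0.181 at 12 weeks (adjusted p = 0.00028), and Rps19, whose human gene is the one most often mutated in Diamond-Blackfan anaemia, by 0.75 ± 0.161 at 12 weeks (adjusted p = 0.00199) and 0.94 ± 0.159 at 5 weeks (adjusted p = 0.000116). Rps2, Rps3, Rps9, Rps15a, Rps18, Rps20, Rps21 and Rps28 were among the others called at 12 weeks, and Rps15a, Rps18, Rps20 and Rps21 among those at 5 weeks.

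**Figure D4:**
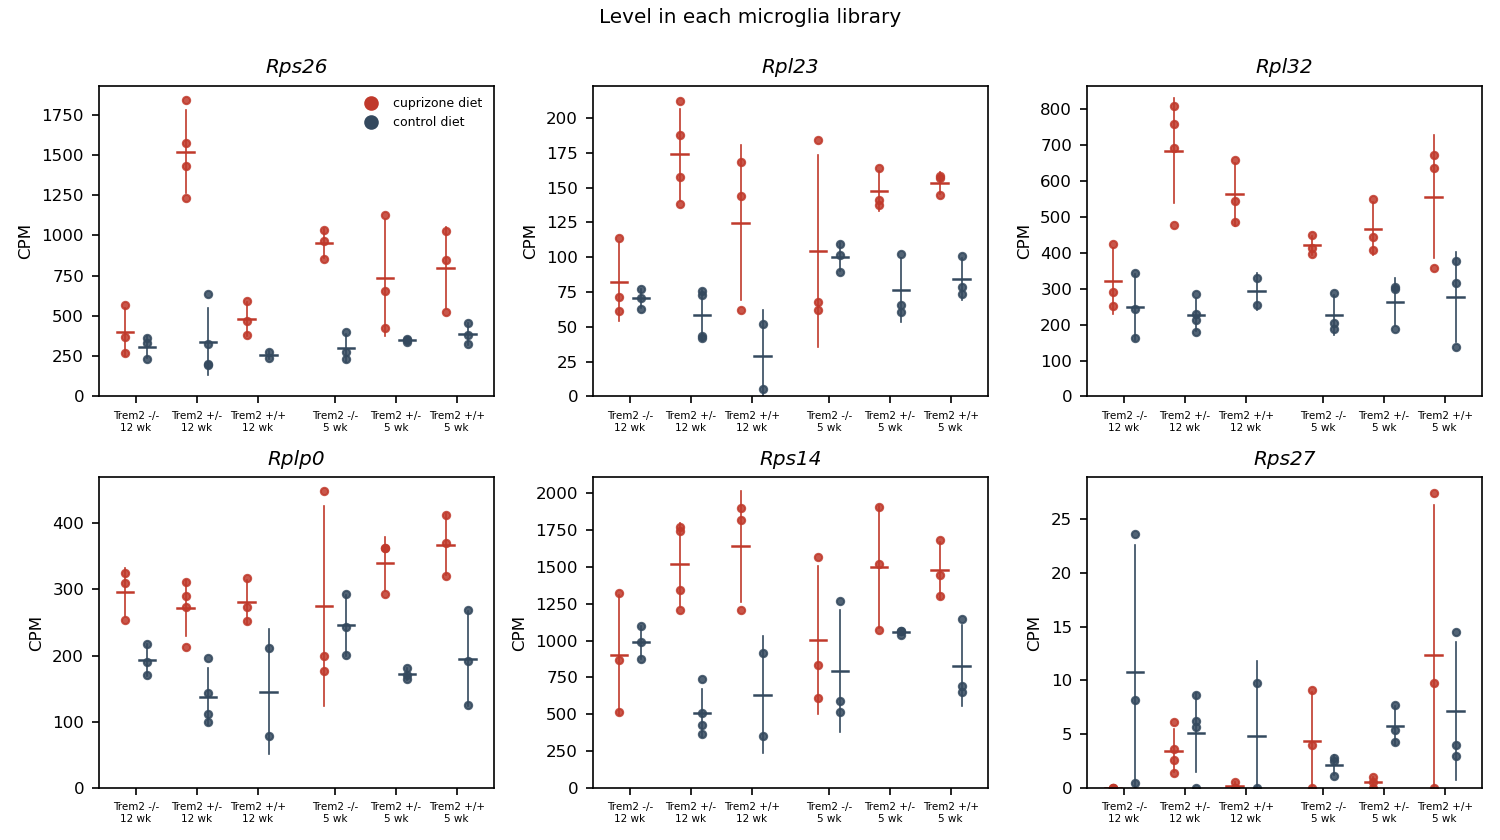
CPM of 6 ribosomal protein genes in each microglia library by genotype and weeks of diet, cuprizone left of control; points are libraries, horizontal bars group means and vertical lines 1 SD, and each panel has its own scale. Rpl23 at 12 weeks lies between 61.0 and 212 CPM on cuprizone and between 5.53 and 76.9 CPM on control diet, Rps26 is highest in Trem2 +/- at 12 weeks, and Rps27 is at 0 in several libraries of either diet.

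Among large-subunit genes, the largest called difference at 12 weeks was that of Rpl29, a small basic protein of that subunit. Rpl29 had 0, 19.7 and 68.2 CPM in Trem2 -/- microglia on cuprizone, against 13.1, 14.5 and 20.4 CPM on control diet. In Trem2 +/- it had 64.5, 96.4, 149 and 156 CPM, against 6.07, 13.2, 13.3 and 33.5 CPM, and in Trem2 +/+ 23.98, 31.99 and 43.4 CPM, against 9.22 and 20.9 CPM. The Trem2 -/- groups overlapped and the others did not. Rpl29 rose by 1.69 ± 0.435 (adjusted p = 0.0143), and the call was lost without Trem2 -/- cuprizone animal 1748 (1.08, adjusted p = 0.158) or Trem2 +/+ control animal 9145 (1.57, adjusted p = 0.125; edgeR throughout).

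Rpl23, which also binds and inhibits Mdm2, the ligase that degrades p53, rose by 1.31 ± 0.254 at 12 weeks (adjusted p = 0.000514) and kept the call in all 19 leave-one-out fits. It ranged from 61.0 to 212 CPM with a median of 141 CPM in 10 microglia libraries on cuprizone, against 5.53 to 76.9 CPM with a median of 63.1 CPM in 9 on control diet. Rpl35a rose by 1.25 ± 0.331 at 12 weeks (adjusted p = 0.0312) and 1.27 ± 0.319 at 5 weeks (adjusted p = 0.0314), calls that held in 13 of 19 and 9 of 18 leave-one-out fits, with adjusted p of at most 0.242 and 0.0698. At 12 weeks its diet difference was in the other direction in Trem2 -/- (63.6, 86.6 and 137 CPM on cuprizone, against 99.9, 143 and 191 CPM), while Trem2 +/- had 191, 306, 332 and 484 CPM, against 30.4, 125, 138 and 149 CPM, and Trem2 +/+ 222, 237 and 287 CPM, against 16.6 and 69.0 CPM. Rpl32, named after its values were seen, rose by 0.96 ± 0.17 at 12 weeks (adjusted p = 0.00012) and 0.92 ± 0.167 at 5 weeks (adjusted p = 0.000325), in every leave-one-out fit (edgeR throughout).

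At 5 weeks the other large differences were those of Rpl41, the smallest ribosomal protein, and Rplp2, a partner of Rplp1 in the stalk. Rplp2 was the gene whose diets separated completely at 5 weeks: 337, 474 and 715 CPM in Trem2 -/- on cuprizone, 329, 497 and 758 CPM in Trem2 +/- and 348, 409 and 455 CPM in Trem2 +/+, against 100, 143 and 288 CPM, 255, 302 and 328 CPM, and 154, 208 and 283 CPM on control diet; 0.121% of all genes separated in this way. The nearest libraries, 1 from each diet and both Trem2 +/-, differed by less than 1 CPM. Rplp2 rose by 1.11 ± 0.192 (adjusted p = 0.000153) and Rpl41 by 1.26 ± 0.223 (adjusted p = 0.000325), in all 18 leave-one-out fits. At 12 weeks Rplp2 was not called, while Rpl41 rose by 1.05 ± 0.229 (adjusted p = 0.0029), a call lost without animal 9145 (0.77, adjusted p = 0.0643). Rplp0, the base of the stalk and a common reference gene in PCR, rose by 0.86 ± 0.188 at 12 weeks (adjusted p = 0.00269) and 0.69 ± 0.184 at 5 weeks (adjusted p = 0.0314; edgeR throughout). At 12 weeks it had 212 to 324 CPM with a median of 282 CPM on cuprizone, against 78.4 to 218 CPM with a median of 170 CPM on control diet. The 12-week call of Rplp0 was lost without animal 9145 (adjusted p = 0.105), and the 5-week call held in only 6 of 18 leave-one-out fits (adjusted p up to 0.177).

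Rps27 was the gene that fell at 12 weeks, and its counts were few. Rps27 had 0 CPM in all 3 Trem2 -/- microglia libraries on cuprizone, against 0.503, 8.17 and 23.7 CPM on control diet. Trem2 +/- had 1.43, 2.60, 3.61 and 6.13 CPM on cuprizone, against 0, 5.68, 6.21 and 8.65 CPM on control diet, and Trem2 +/+ had 0, 0 and 0.558 CPM, against 0 and 9.75 CPM. Cuprizone and control libraries overlapped in Trem2 +/- and Trem2 +/+. The adjusted p was 0.0464, and the fitted log2 value, -3.97, depends on how the libraries at 0 are treated. The call held in 5 of 19 leave-one-out fits; without Trem2 +/+ control animal 1932 the value was -2.03 with an adjusted p of 1, and without the libraries that stand apart the adjusted p was 0.0663 (edgeR). At 5 weeks Rps27 had a difference of -0.65 ± 0.992 (adjusted p = 0.957). Its paralog Rps27l had 0.95 ± 0.37 at 12 weeks (adjusted p = 0.193) and 0.99 ± 0.357 at 5 weeks (adjusted p = 0.199).

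The other genes of a panel of stalk proteins, paralogs and proteins with known roles of their own are given by value. Rplp1 rose at 12 weeks, by 0.58 ± 0.156 (adjusted p = 0.0242), in 12 of 19 leave-one-out fits, and had 0.33 ± 0.155 at 5 weeks (adjusted p = 0.393). Rpl22 rose by 0.81 ± 0.154 at 12 weeks (adjusted p = 0.000394) and had 0.38 ± 0.151 at 5 weeks (adjusted p = 0.25). Rpl39, next to the peptide tunnel, rose by 1.09 ± 0.252 at 12 weeks (adjusted p = 0.00471) and had 0.71 ± 0.244 at 5 weeks (adjusted p = 0.146). Rps28 rose by 0.91 ± 0.268 at 12 weeks (adjusted p = 0.0441, kept in 6 of 19 leave-one-out fits) and had 0.77 ± 0.263 at 5 weeks (adjusted p = 0.147), whereas Rpl38 had 0.62 ± 0.223 at 12 weeks (adjusted p = 0.139) and rose by 0.86 ± 0.219 at 5 weeks (adjusted p = 0.0265). Rpsa, the laminin receptor precursor, Rps4x, Rps29, Rpl3, Rpl10, Rps6 and Rpl39l were not called at either duration (adjusted p of 0.187 or more), with mean levels on cuprizone at 12 weeks of 45.1, 49.96, 9.04, 6.24, 28.0, 0.618 and 3.28 CPM (edgeR throughout). No row for Rps4l was found by symbol, and Rpl3l and Rpl10l were not tested.

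At 12 weeks, with 15730 instead of 14087 genes tested and fewer Trem2 +/+ controls, fewer genes were called without the libraries that stand apart. Without them 14 genes rose and none fell, all 14 among the 25, and the median difference was 0.73. Without the Trem2 +/+ control animal 9145 alone 12 of the 25 remained. At 5 weeks 16 rose without the libraries apart, of which 14 were among the 15, and 9 were called without Trem2 -/- control animal 1104 or without Trem2 +/+ cuprizone animal 2474. The medians moved less than the counts: over single left-out libraries they ran from 0.67 to 0.80 at 12 weeks and from 0.56 to 0.73 at 5 weeks.

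Markers moved with the diet in the same libraries. At 12 weeks 5 of 8 microglia markers fell (Cx3cr1, P2ry12, Sall1, Siglech and Tmem119), and the 8 summed to 15701 to 26780 CPM on cuprizone, against 25136 to 32920 CPM on control diet. At 5 weeks 2 fell (Cx3cr1 and Sall1), with sums of 20023 to 38612 CPM, against 24008 to 40282 CPM. Of 8 early-response genes, which dissociation is known to induce, Jun fell at both durations, and the 8 summed to 15058 to 26236 CPM on cuprizone, against 18741 to 35046 CPM on control diet, at 12 weeks and 12899 to 25648 CPM, against 14331 to 38812 CPM, at 5 weeks. Of 5 border macrophage markers 1 fell at each duration, Mrc1 at 12 weeks and Cd163 at 5 weeks. Of 5 endothelial markers 1 rose at each duration, with sums at 12 weeks of 81.3 to 483 CPM, against 45.3 to 159 CPM. At 12 weeks only 1 of the 5 had a positive difference (list median -0.19), and at 5 weeks 3 were positive (list median 0.72). Of 3 oligodendrocyte precursor markers Cspg4 rose at 12 weeks, with sums of 13.7 to 68.6 CPM, against 2.60 to 24 CPM. Neutrophil markers were not called and summed to 109 to 5723 CPM on cuprizone, against 114 to 3390 CPM on control diet, at 12 weeks. Mitochondrially encoded counts averaged 4.30% on cuprizone and 2.25% on control diet in Trem2 +/- microglia at 12 weeks. The labels give an RNA integrity number for some libraries. At 12 weeks it was 7.3, 7.4 and 8.1 in 3 microglia libraries on cuprizone, against 8.1, 9.1 and 9.6 in 3 on control diet, with none for the other 7 and 6, which include all Trem2 +/- libraries. At 5 weeks it was 8.7 to 9.9 in 8 libraries on cuprizone, against 8.7 to 9.7 in 7 on control diet. The part of each of these in the ribosomal protein differences was not tested.

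Within single genotypes the calls were uneven. In Trem2 +/- at 12 weeks 27 of the 78 genes rose and none fell, against 1.88% of all genes called higher and 0.667% lower, with a median difference of 1.14. In the same comparison 3 of 8 microglia markers and 2 of 5 border macrophage markers were called lower, and the border macrophage markers summed to 190 to 489 CPM on cuprizone, against 364 to 996 CPM on control diet. The 1 tested lymphocyte marker of 6 was also called lower, and the 6 summed to 0 to 0.766 CPM, against 9.55 to 21.96 CPM. Neutrophil markers were not called, with a median difference of -2.52 and sums of 109 to 346 CPM, against 114 to 1836 CPM. Of the endothelial and oligodendrocyte precursor markers 1 each was called higher. The endothelial list had 1 of 5 positive and a median of -0.72, and the precursor list 3 of 3 and 0.33. The part of these markers in the ribosomal protein differences was not tested. In Trem2 -/- at 12 weeks none was called, against 0.0284% of all genes called higher and 0% lower, with a median of 0.14, or 0.25 without animal 981; 12 genes passed an unadjusted p under 0.05 with edgeR (15.4%, against 7.44% of all genes) and DESeq2 called 1. In Trem2 +/+ at 12 weeks 3 rose (0.689% of all genes higher, 0.27% lower), with a median of 0.77. At 5 weeks 2 rose in Trem2 -/- (0.0568% higher, 0% lower; median 0.58), 1 in Trem2 +/- (0.263% higher, 0.0142% lower; median 0.42) and 1 in Trem2 +/+ (0.142% higher, 0% lower; median 0.83). The Trem2 +/- groups at 12 weeks had 4 animals each and the others 2 or 3, so counts of calls are not comparable between genotypes.

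In Trem2 +/- at 12 weeks each of the 27 called genes had all 4 cuprizone libraries above all 4 controls; in all, 34 of the 78 separated in this direction, against 4.69% of all genes. The largest differences were those of Rpl29 (2.91 ± 0.652, adjusted p = 0.00406), Rps26 (2.21 ± 0.281, adjusted p = 1.21e-07), Rpl39 (1.83 ± 0.376, adjusted p = 0.00159) and Rps25 (1.69 ± 0.386, adjusted p = 0.00507). Rpl39 had 199, 225, 239 and 255 CPM on cuprizone, against 19.96, 31.3, 60.8 and 144 CPM on control diet. Rps25, a small-subunit protein that some viral and cellular internal ribosome entry sites need, had 88.9, 116, 210 and 237 CPM, against 29.2, 33.8, 65.2 and 71.9 CPM. All 4 calls held in each of 8 leave-one-out fits, and 22 to 25 genes were called in those fits (edgeR throughout).

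In Trem2 -/- at 12 weeks the smallest p belonged to Rpl37a, a zinc-finger protein of the large subunit, with 200, 323 and 536 CPM on cuprizone, against 126, 131 and 169 CPM on control diet. Its difference was 1.29 ± 0.351 (adjusted p = 0.282), between groups that did not overlap. In Trem2 +/+ at 12 weeks Rpl35a rose by 2.76 ± 0.70 (adjusted p = 0.0491), Rpl23 by 2.17 ± 0.524 (adjusted p = 0.027) and Rps14 by 1.5 ± 0.363 (adjusted p = 0.0287). These rest on 2 control animals: without animal 9145 none was called, and the differences were 2.14, 1.30 and 1.03 (adjusted p from 0.600 to 0.645). Without cuprizone animal 8043 none was called either, and without 1746 or 3917 1 was.

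At 5 weeks the calls in single genotypes depended on single animals. In Trem2 -/- Rps26 rose by 1.68 ± 0.318 (adjusted p = 0.00529) and Rplp2 by 1.58 ± 0.337 (adjusted p = 0.0376), and neither was called without control animal 945 or 1104 or cuprizone animal 310 (adjusted p for Rps26 from 0.0601 to 0.183). In Trem2 +/- Rpl41 rose by 1.63 ± 0.389 (adjusted p = 0.0463), with 443, 542 and 838 CPM on cuprizone, against 167, 208 and 215 CPM on control diet; the call held in 1 of 6 leave-one-out fits, and was lost without cuprizone animals 1106 or 8042 or control animals 1745, 4352 or 9546 (adjusted p up to 0.426). In Trem2 +/+ Rps19 rose by 1.23 ± 0.278 (adjusted p = 0.0363), with 831, 1145 and 1296 CPM, against 379, 444 and 577 CPM; its call also held in 1 of 6 fits, and was lost without cuprizone animals 2474 or 9144 or control animals 309, 1930 or 5512 (adjusted p up to 0.363; edgeR throughout).

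Does loss of Trem2 change these genes or their diet difference? Set against Trem2 +/+, no ribosomal protein gene was called in Trem2 -/- microglia under any diet or duration, against 0.114% of all genes called higher and 0.327% lower on cuprizone at 12 weeks. There the median difference, Trem2 -/- minus Trem2 +/+, was -0.45 (-0.41 without animal 981, with none called), 57 of the 78 were negative, and 12 genes passed an unadjusted p under 0.05 (15.4%, against 9.85% of all genes). The smallest p was that of Rpl32, with 251, 290 and 424 CPM in Trem2 -/-, against 486, 544 and 658 CPM in Trem2 +/+, a difference of -0.82 ± 0.289 (adjusted p = 0.294, edgeR) between groups that did not overlap. On cuprizone at 5 weeks the median was -0.27 with 2 genes at an unadjusted p under 0.05 (5.14% of all genes; 0% called higher and 0.0781% lower). On control diet it was 0.17 at 12 weeks with 11 genes (6.9% of all genes; 0.0142% called higher and 0.0071% lower) and 0.01 at 5 weeks with 2 genes (4.33% of all genes; 0% called higher and 0.0071% lower). The test of the diet difference itself, Trem2 -/- minus Trem2 +/+, called none at either duration, against 0.0284% of all genes called lower at 12 weeks, 0.0071% at 5 weeks and 0% higher at both. At 12 weeks its median was -0.67 (-0.51 without the libraries that stand apart), against -0.13 over all genes, 17 genes passed an unadjusted p under 0.05 (21.8%, against 10.6% of all genes), DESeq2 called 5 lower, and the smallest edgeR p was that of Rpl35a (-3.37 ± 0.879, adjusted p = 0.152). At 5 weeks the median was -0.25 and 3 genes passed an unadjusted p under 0.05 (4.54% of all genes, edgeR).

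Set against Trem2 +/-, in comparisons added after the data were seen, 5 ribosomal protein genes were lower and none higher in Trem2 -/- microglia on cuprizone at 12 weeks, against 0.752% of all genes called lower and 0.298% higher. The median difference was -0.75, or -0.71 without animal 981, and 67 of the 78 were negative and 25 passed an unadjusted p under 0.05 (32.1%, against 13.3% of all genes). Rps26 was lowest, with 273, 366 and 565 CPM in Trem2 -/-, against 1231 to 1842 CPM in 4 Trem2 +/- libraries, a log2 difference of -1.93 ± 0.308 (adjusted p = 7.42e-05) that was called in all 7 leave-one-out fits. Rpl39 had 58.2, 68.9 and 93.5 CPM in Trem2 -/-, against 199 to 255 CPM in Trem2 +/- (-1.70 ± 0.415, adjusted p = 0.0242). Rps25 differed by -1.58 ± 0.424 (adjusted p = 0.0467) and Rps15a by -1.30 ± 0.326 (adjusted p = 0.0311), and Rpl32, named after its values were seen, by -1.13 ± 0.277 (adjusted p = 0.0242; edgeR throughout). All 5 separated without overlap, and in all 17 of the 78 genes separated in this direction, against 5.42% of all genes. Apart from Rps26, these calls depended on single animals: 1 gene was called without Trem2 -/- animal 981 or without Trem2 +/- animal 2476 and 2 without Trem2 +/- animal 9469. Without Trem2 -/- animal 1748 Rps26 alone of the 5 kept its call, and 4 genes were called in all. Without the libraries that stand apart 2 were called. At 5 weeks none was called, with a median of -0.14 and 2 genes at an unadjusted p under 0.05 by edgeR (5.61% of all genes; 0% called higher and 0.0639% lower), and DESeq2 also called none.

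The diet difference was smaller in Trem2 -/- than in Trem2 +/- for 1 gene at 12 weeks, Rps26 (-1.80 ± 0.414, adjusted p = 0.0448), against 0.128% of all genes called in that direction and 0% in the other. The median of this difference of differences was -1.04 (-0.97 without the libraries that stand apart), with 66 of 78 negative and 30 genes at an unadjusted p under 0.05 (38.5%, against 9.86% of all genes). The Rps26 call was lost without the libraries that stand apart (-1.46, adjusted p = 0.306) and held in 3 of 14 leave-one-out fits (adjusted p up to 0.204, without Trem2 -/- animal 981). At 5 weeks the median was 0.13 and none was called (3 genes at an unadjusted p under 0.05, 6.88% of all genes, with 0.0142% called lower and 0% higher, edgeR). On cuprizone at 12 weeks the marker levels of these groups also differed: border macrophage markers summed to 658 to 909 CPM in Trem2 -/-, against 190 to 489 CPM in Trem2 +/-, with 2 of 5 called higher, neutrophil markers to 597 to 5723 CPM, against 109 to 346 CPM, with 1 of 6 called higher, and endothelial markers to 81.3 to 138 CPM, against 202 to 371 CPM, with 1 of 5 called lower. Of the 5 endothelial markers, 4 had positive differences (list median 0.86), so their lower sum does not describe the whole list. Mitochondrially encoded counts averaged 2.48%, against 4.30%. The part of these in the ribosomal protein differences was not tested.

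**Figure D5:**
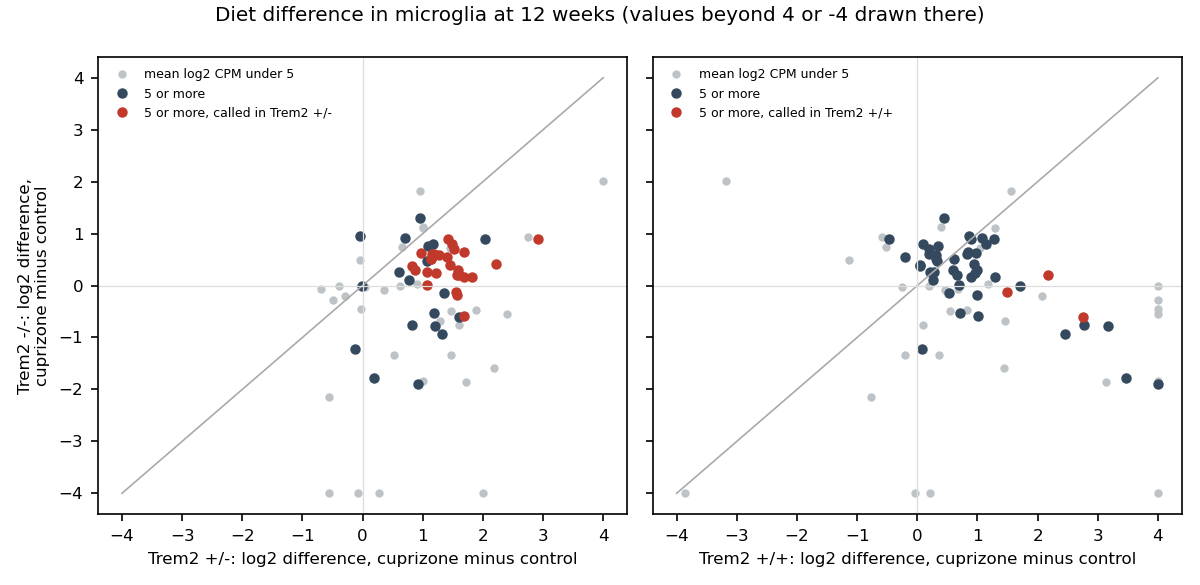
Log2 difference of each ribosomal protein gene in microglia at 12 weeks, cuprizone minus control, in Trem2 -/- (vertical) against Trem2 +/- (left) and Trem2 +/+ (right); points are genes, grey for a mean log2 CPM under 5, red where the call was made in the genotype of the horizontal axis, and the diagonal marks equal differences. In the left panel all red points lie below the diagonal. They were chosen for a high value on the horizontal axis, which by itself favours that side, so their place does not show a smaller difference in Trem2 -/-. The medians over all tested ribosomal protein genes were 0.14 in Trem2 -/- and 1.14 in Trem2 +/-.

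Trem2 +/- and Trem2 +/+ microglia were compared only with the durations averaged, not at each duration. With durations averaged, no ribosomal protein gene was called on cuprizone (median difference 0.06, Trem2 +/- minus Trem2 +/+; 9 genes at an unadjusted p under 0.05, 11.5%, against 6.96% of all genes) or on control diet (median 0.04; 14 genes, 17.9%, against 7.88%), and DESeq2 called 1 on cuprizone. Of all genes edgeR called 0.0355% higher on cuprizone, 0% lower, and 0% either way on control diet. The smallest p on cuprizone was that of Rplp1 (0.72, adjusted p = 0.161, edgeR). On cuprizone at 12 weeks, Rps26 was higher in each Trem2 +/- library than in any Trem2 +/+ or Trem2 -/- library, as its values above show. Against Trem2 +/+ this difference was not tested at that duration alone. On control diet the 12-weeks-minus-5-weeks median was -0.15 and none was called (7 genes at an unadjusted p under 0.05, against 7.94% of all genes; 0.0071% called higher and 0% lower, edgeR).

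In the nonmicroglia fraction no ribosomal protein gene was called in any comparison by edgeR. With the genotypes averaged, the median diet difference was 0.35 at 12 weeks, where 69 of 75 genes were positive and 12 passed an unadjusted p under 0.05 (16%, against 8.41% of all genes), and 0.27 at 5 weeks, where 53 were positive and 9 passed (12%, against 7.58%). Of all genes 0.319% were called higher and 0.177% lower at 12 weeks, and 0.278% and 0.166% at 5 weeks. Within single genotypes 0.0296% of all genes were called higher and 0.00591% lower in Trem2 -/-, 0.13% and 0.0118% in Trem2 +/- and 0.0591% and 0.0236% in Trem2 +/+ at 12 weeks, and 0.0296%, 0.0591% and 0.0414% higher and 0% lower in the same order of genotypes at 5 weeks. Between genotypes, and in the tests of their diet differences, edgeR called no gene of any kind in this fraction (0%). Between 12 and 5 weeks it called 0.29% of all genes higher and 0.674% lower on cuprizone and 0.106% and 0.13% on control diet. DESeq2 called 5 genes at 12 weeks and 2 at 5 weeks. The smallest p at 5 weeks was that of Rplp0, with 63.4, 77.3 and 95.4 CPM in Trem2 -/- on cuprizone, against 39.8, 47.5 and 59.4 CPM on control diet. Trem2 +/- had 79.5, 86.8 and 129 CPM, against 27.0, 47.7 and 51.0 CPM, and Trem2 +/+ 88.1, 93.4 and 104 CPM, against 32.6, 69.9 and 80.6 CPM. Each genotype separated by diet, with a difference of 0.85 ± 0.23 (adjusted p = 0.0778). At 12 weeks the smallest p was that of Rps14 (0.55 ± 0.154, adjusted p = 0.0975, edgeR). Its Trem2 -/- libraries had 532 to 853 CPM on cuprizone, against 445 to 501 CPM on control diet. Trem2 +/- had 409 to 853 CPM, against 551 to 909 CPM, and Trem2 +/+ 885 to 1002 CPM, against 302 to 457 CPM. The diets overlapped in Trem2 +/- and separated in the other genotypes. Whether the diet difference itself differs between the fractions was not tested, so the calls in microglia and their lack in the nonmicroglia fraction are not shown to differ.

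How do the fractions compare? Ribosomal protein RNA was higher in microglia. In a joint fit of all 74 libraries, averaged over the 6 cuprizone groups, 53 of the 78 genes were higher and 2 lower in microglia, against 19.3% of all genes called higher and 29.8% lower. Over the 6 control groups 45 were higher and 2 lower, against 20.2% and 27.6% of all genes. The median log2 difference, microglia minus nonmicroglia, was 1.26 on cuprizone and 0.98 on control diet, against -0.37 and -0.31 over all genes; 42 genes were called higher under both diets. Scaling by library totals moved the all-gene medians by -0.25 and -0.19 and left 47 higher and 2 lower on cuprizone and 38 higher and 4 lower on control diet. Without the 6 libraries that stand apart 51 were higher and 2 lower on cuprizone (median 1.26) and 43 higher and 2 lower on control diet (median 0.98).

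Rplp1 was among the genes that separated completely: 1189 to 3586 CPM in microglia on cuprizone, against 275 to 711 CPM in the nonmicroglia fraction, and 821 to 2256 CPM, against 226 to 552 CPM, on control diet. Its difference was 1.94 ± 0.12 on cuprizone (adjusted p = 2.86e-28) and 1.77 ± 0.125 on control diet (adjusted p = 2.93e-24). On cuprizone 16 genes separated in this way (3.97% of all genes), among them Rpl32 (2.06 ± 0.144, adjusted p = 1.22e-24), and on control diet 3 did (4.32% of all genes), Rplp1, Rps3 and Rps10. The largest called differences on cuprizone were those of Rpl10a (2.94 ± 0.744, adjusted p = 0.000436), Rps12 (2.22 ± 0.493, adjusted p = 8.52e-05) and Rps18 (2.07 ± 0.191, adjusted p = 1.99e-17), besides Rpl32. On control diet they were those of Rpl39l (4.53 ± 1.05, adjusted p = 0.000159), Rpl7a (3.39 ± 0.882, adjusted p = 0.000638), Rpl10a (2.25 ± 0.759, adjusted p = 0.00917) and Rplp0 (1.79 ± 0.151, adjusted p = 1.62e-19; edgeR throughout). Rpl39l, Rpl7a, Rpl10a and Rps12 had means under 40 CPM and libraries at 0, and the last 3 have near copies, so their values are uncertain. Without the libraries apart Rpl7a lost its call on control diet (2.73, adjusted p = 1).

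A few genes went the other way. Rpl36 was lower in microglia under both diets, with means of 3.79 CPM in microglia and 10.6 CPM in the nonmicroglia fraction on cuprizone (-2.13 ± 0.755, adjusted p = 0.0134), and 2.21 and 11.1 CPM on control diet (-2.62 ± 0.861, adjusted p = 0.00729). It has 11 near copies, and the ranges overlapped. Rps6 was called lower on cuprizone (-2.65 ± 0.996, adjusted p = 0.0206), with means of 0.958 and 3.03 CPM, and lost the call with the animal as a block. Rps27l was lower on control diet (-0.66 ± 0.241, adjusted p = 0.0193), with means of 101 and 138 CPM, and not called on cuprizone (0.18 ± 0.227, adjusted p = 0.62; edgeR throughout). Rpl38 differed by -0.03 ± 0.149 on control diet (adjusted p = 1) and was higher on cuprizone, by 0.72 ± 0.143 (adjusted p = 1.22e-05).

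Other genes of translation were followed in lists drawn up from textbook roles; no difference between lists was tested. Of 23 translation factors and TOP mRNA genes, 9 rose and none fell in microglia after 12 weeks of cuprizone (median 0.78), against 2.04% of all genes called higher. After 5 weeks 5 rose and none fell (median 0.53), against 1.33% of all genes called higher. At 12 weeks the largest were Eif3k (1.22 ± 0.225, adjusted p = 0.000225) and Eif4b (1.19 ± 0.277, adjusted p = 0.00545), both of initiation, Npm1, a nucleolar chaperone of ribosome assembly (1.04 ± 0.19, adjusted p = 0.000217), and Zfas1, a noncoding RNA that hosts small nucleolar RNAs (1 ± 0.2, adjusted p = 0.000799). Zfas1 was also the largest at 5 weeks, with 219 to 813 CPM on cuprizone, against 69.7 to 206 CPM on control diet and no overlap (1.59 ± 0.199, adjusted p = 1.47e-07). It was followed by Nap1l1 (1.24 ± 0.253, adjusted p = 0.00181), Eef1a1, the elongation factor that delivers tRNA (0.78 ± 0.167, adjusted p = 0.00324), and Npm1 (0.65 ± 0.184, adjusted p = 0.0478; edgeR throughout). In Trem2 -/- at 12 weeks none of the 23 rose and in Trem2 +/- 8 did (medians 0.23 and 0.91), against 0.0284% and 1.88% of all genes; of the difference between these genotypes on cuprizone, 1 was called, Npm1, lower in Trem2 -/- (-1.14), against 0.752% of all genes called lower.

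Of 7 tested ribosomal proteins whose symbols fall outside the rule, Rack1, a scaffold at the head of the small subunit, rose at both durations: 769 to 1154 CPM on cuprizone, against 444 to 868 CPM on control diet, at 12 weeks (0.66 ± 0.134, adjusted p = 0.000905), and 720 to 1235 CPM, against 440 to 693 CPM, at 5 weeks (0.68 ± 0.132, adjusted p = 0.000824). It was the 1 gene of the 7 called at either duration, and the list medians were 0.39 at 12 weeks and 0.68 at 5 weeks. Of 32 genes of ribosome biogenesis 1 rose at 12 weeks, Nop10 (0.90 ± 0.25, adjusted p = 0.0296; list median 0.24), and none at 5 weeks (median 0.13). In microglia none of 22 regulators of ribosomal protein synthesis and translation was called at 12 weeks (median -0.04), where Rptor, the mTORC1 subunit, had the smallest p (-0.75 ± 0.351, adjusted p = 0.293), nor at 5 weeks (median -0.16). Of 76 mitochondrial ribosomal protein genes 1 rose at each duration, Mrpl33 at 12 weeks (0.83 ± 0.221, adjusted p = 0.0194) and Mrpl54 at 5 weeks (1.93 ± 0.538, adjusted p = 0.0457; edgeR throughout), with list medians of 0.26 and 0.17. Against the 2.04% and 1.33% of all genes called higher at 12 and 5 weeks, 1 of 76 and 1 of 32 are near the background. Between fractions 3 of the 76 mitochondrial genes were higher and 20 lower in microglia on cuprizone, against 19.3% of all genes called higher and 29.8% lower. On control diet 1 was higher and 26 lower, against 20.2% and 27.6% of all genes. The list medians of -0.42 on cuprizone and -0.43 on control diet lay near the -0.37 and -0.31 of all genes. In the nonmicroglia fraction 2 of the 23 TOP genes rose at each duration, the snoRNA hosts Snhg1 (1.14 at 12 weeks and 1.40 at 5 weeks) and Gas5 (0.84 and 0.83), against 0.319% of all genes called higher at 12 weeks and 0.278% at 5 weeks. None of the tested ribosomal protein genes was called there. Of the 22 regulators 1 rose in this fraction at 5 weeks, Eif4ebp1, an inhibitor of cap-dependent initiation that mTORC1 phosphorylates. It had 6.43 to 20.7 CPM on cuprizone, against 0 to 2.48 CPM on control diet and no overlap (3.97 ± 0.978, adjusted p = 0.0332, edgeR). None of the regulators was called in this fraction at 12 weeks.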

How the data were processed

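Brains were dissociated, stained and sorted, and libraries were made with a QuantSeq 3′ mRNA kit, per the labels' protocols. The deposited file holds whole-number counts per gene, made by the authors; STAR, FastQC 0.11.5, MultiQC and R 3.4.3 and the GRCm38.p6 build are named in the submitters' processing notes. The sources used here do not name the counter, its annotation, its use of strand or its handling of tags that match several places. No column of values was left unmapped to a sample (0).

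Counts were fitted with edgeR 4.0.16 in R 4.3.3: TMM scaling, filterByExpr with a minimum count of 10, a robust quasi-likelihood fit per fraction with 12 group means and sex, and Benjamini-Hochberg adjustment over all genes tested, with calls at an adjusted p under 0.05. Contrasts averaged groups with equal weight. Both fractions were compared in a joint fit of 24 group means and sex, in which 18408 genes were tested. Standard errors are the log2 difference divided by the root of F. The fit was tested on simulated counts. Depth was 1043961 to 3945694 counts per library, with medians of 1782314 in microglia and 1705753 in the nonmicroglia fraction, and limits the precision of genes under 10 CPM.

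Both fractions of an animal share a brain, which pairs them; over 37 animals the deviations of both fractions from their group means correlated at -0.03 to 0.09 (median 0.01). Between diets and genotypes the animals differ and no pairing exists. Libraries stand apart where they lie beyond 30 on the first principal component of genes with a mean log2 CPM of at least 5. No library was a duplicate: over 80 pairs within groups the chi-square statistic divided by its degrees of freedom was at least 11.0.

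Alternatives were DESeq2 1.42.0 with its own size factors, limma 3.58.1 voom, size factors or library totals in edgeR, TMM without ribosomal protein genes, no filter, no sex term, each library left out, and the libraries apart left out. There were 46 comparisons, of which the 8 of Trem2 -/- with Trem2 +/- were added after the data were seen. The members and lists were chosen with earlier results of these data known. Named genes are a panel (Rplp0, Rplp1, Rps6, Rpl3, Rpl3l, Rps27, Rps27l, Rpl10, Rpl10l, Rpl39, Rpl39l, Rps4x, Rps4l, Rpl22, Rpl38, Rps28, Rps29, Rpsa and Rpl41), up to 4 called genes with the largest rise and 4 with the largest fall per comparison, or else the gene with the smallest p, and the 3 highest and 3 lowest tested levels per fraction; single-gene results of 2 ribosomal protein genes are not reported here. Near copies were found with blastn 2.17.0 in GENCODE M21 transcripts.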

Additional observations from a re-analysis of the deposited data

Results flagged for a closer look

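In 19 of 176 checks of a group of 4 libraries, 1 library lay far from the other 3, by a gap that, divided by the group's range, exceeded Dixon's critical value. The checks covered the named genes and the ribosomal protein share in the 4 Trem2 +/- groups at 12 weeks. For normally distributed values chance flags about 1 in 20 groups. Where the other 3 libraries are at 0, any count gives a ratio of 1 and a flag. That rate therefore does not hold here, and 19 of 176 is not shown to exceed chance. Most of these genes had few counts. The outlying library was sought for each gene on its own and can differ from gene to gene.

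In Trem2 +/- microglia on cuprizone, the outlying library of Rpl27 had 1.43 CPM (the others 16.9 to 18.0). That of Rpl3 had 32.9 CPM (0 to 3.61) and that of Rpl36 10.4 CPM (0 to 0.515). That of Rpl3l had 1.95 CPM (0) and that of Rps6 1.53 CPM (0). On control diet, that of Rpl36 had 6.21 CPM (0), that of Rpl39l 6.07 CPM (0 to 0.631) and that of Rps6 1.996 CPM (0).

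In the nonmicroglia fraction of Trem2 +/- animals on cuprizone, the outlying library of Rpl38 had 1618 CPM (the others 589 to 694). That of Rpl3l had 0.542 CPM (0) and that of Rpl41 501 CPM (225 to 242). That of Rps15a had 44.9 CPM (81.1 to 86.1). That of Rps27 had 10.4 CPM (0 to 1.76) and that of Rps6 10.4 CPM (0 to 1.08). On control diet, that of Rpl10a had 0.717 CPM (0) and that of Rpl39 97.7 CPM (23.7 to 36.2). That of Rpl39l had 5.02 CPM (0), that of Rps24 603 CPM (450 to 473) and that of Rps6 9.98 CPM (0).

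The diet difference of Rps26 in microglia at 12 weeks differed between Trem2 -/- and Trem2 +/-, by -1.80 on the log2 scale (adjusted p = 0.0448, edgeR interaction test). This comparison was added after the data were seen. The call was lost in most leave-one-out fits, with size factors, with library totals and with no sex term. Without the libraries that stand apart the value was -1.46 (adjusted p = 0.306, edgeR).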

How the results depend on the processing

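Rises on cuprizone in microglia kept their direction under every alternative for the medians of both averaged comparisons, which ran from 0.65 to 0.75 at 12 weeks and from 0.63 to 0.71 at 5 weeks. Counts of called genes moved more. Leaving out the libraries apart gave 14 instead of 26 called genes at 12 weeks; it gave 0 in Trem2 -/- at 5 weeks, 0 in Trem2 +/+ at 12 weeks and 2 at 5 weeks, 2 for Trem2 -/- against Trem2 +/- on cuprizone at 12 weeks and 0 for their diet difference, and 1 in Trem2 +/+ nonmicroglia at 12 weeks.

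With no filter, microglia had 8 called genes in Trem2 -/- at 5 weeks, 2 in Trem2 +/- and 4 in Trem2 +/+ at 5 weeks, 8 in Trem2 +/+ at 12 weeks, 11 for Trem2 -/- against Trem2 +/- on cuprizone at 12 weeks, 6 and 2 for their diet difference at 12 and 5 weeks, 4 on cuprizone and 5 on control diet at 12 weeks and 1 on control diet at 5 weeks for Trem2 -/- against Trem2 +/+, 7 for their diet difference at 12 weeks, 2 and 4 for Trem2 +/- against Trem2 +/+ on cuprizone and control diet, and 1 and 2 between weeks on cuprizone and control diet; 3 nonmicroglia comparisons had 1 each. DESeq2 called 4 in Trem2 +/- and 7 in Trem2 +/+ at 5 weeks, 1 in Trem2 -/- and 10 in Trem2 +/+ at 12 weeks, 9 for Trem2 -/- against Trem2 +/- on cuprizone at 12 weeks, 6 for their diet difference, 5 for that of Trem2 -/- against Trem2 +/+, and 1 each for Trem2 +/- against Trem2 +/+ and between weeks on cuprizone. In the nonmicroglia fraction it called 5 and 2 in the averaged comparisons at 12 and 5 weeks, 3 in Trem2 +/+ at 12 weeks, and 1 each in Trem2 +/- at 12 weeks, Trem2 +/+ at 5 weeks and between weeks on either diet. Limma called 3, 1 and 5 in Trem2 +/-, Trem2 -/- and Trem2 +/+ at 5 weeks, 1 in Trem2 +/+ at 12 weeks, 1 for Trem2 -/- against Trem2 +/+ on cuprizone at 12 weeks, 4 for the diet difference of Trem2 -/- against Trem2 +/-, and 1 between weeks in nonmicroglia on cuprizone. Without the sex term Trem2 -/- at 5 weeks and Trem2 +/+ at 12 weeks had 1 each, Trem2 -/- against Trem2 +/- had 2 and their diet difference 0; size factors gave 1 in Trem2 -/- at 5 weeks and 0 for that diet difference, and library totals gave 2 and 0 for the same pair. The cause of these shifts was not tested.

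With single libraries left out, the counts ran from 13 to 26 at 12 weeks and 9 to 18 at 5 weeks in the averaged microglia comparisons, 22 to 25 in Trem2 +/- and 0 to 3 in Trem2 +/+ at 12 weeks, 0 to 2 in Trem2 -/- and Trem2 +/- and 0 to 1 in Trem2 +/+ at 5 weeks, 1 to 5 for Trem2 -/- against Trem2 +/- on cuprizone at 12 weeks and 0 to 2 for their diet difference; 9 other comparisons ran from 0 to 1. A gene that was not called changed sign: Rpl28 in Trem2 -/- against Trem2 +/+ controls at 5 weeks ran from -0.48 to 6.72. Where a group was left with 1 library, that library is assumed to vary like the others.

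With the animal as a replicate block, which pairs both fractions of a brain, 55 genes differed between fractions on cuprizone and 49 on control diet. Rps6 (-3.01) and Rpl3 (1.45) were among the genes that lost their call on cuprizone, so these are not all the same genes as before. Library totals moved the median of all genes by -0.16 for Trem2 +/- at 12 weeks, where 22 genes were called. Depth limits the 13 genes under 10 CPM in microglia and 17 in the nonmicroglia fraction.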
